A study of Mus musculus with 11 samples.

Results

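Scavenger and mannose receptors are 9 genes here, Marco, Msr1, Mrc1, Cd36, Scarb1, Scarb2, Cd68, Cd163 and Stab1, taken by name from 21887 protein-coding genes of the annotation. No rule on measured values was used, but the choice was made with earlier results of these data known. Open chromatin was profiled by ATAC-seq, in which a transposase cuts accessible DNA, in sorted alveolar macrophages of the mouse strain C57BL/6. Naive mice were wild type and free of tumour (4 samples). The other groups had tumour foci grown from a KP cell line, or its GFP-carrying form, put into the tail vein, and their lungs were taken at day 15 (4 samples) or day 30 (3 samples). Which samples received the GFP-carrying cells, and how many animals made up a sample, are not given in the sources used here, and foci seeded from blood by a cultured line are a transplant model. The deposited data are 1 peak list per group, so no value has a replicate error, and no test between groups was possible. Peaks were taken where they lay inside a member or within 1000 bp of its ends, or had a member's end as their nearest protein-coding gene end within 50 kb.

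These receptors clear particles, bacteria, modified lipoproteins and dying cells from the air space, and alveolar macrophages use several of them to take up inhaled dust and spent surfactant. Marco and Msr1 are class A scavenger receptors with collagen-like stems. Cd36, Scarb1 and Scarb2 form class B, with a loop anchored in the membrane at both ends. Mrc1, the mannose receptor CD206, is a C-type lectin, Cd68 is a glycoprotein of late endosomes and lysosomes, Cd163 takes up haemoglobin bound to haptoglobin, and Stab1 is stabilin-1. Accessible promoters and distal elements around such genes are where transcription factors can bind, but a peak is a measure of open DNA and not of RNA or protein.

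Peaks numbered 14731 in naive cells, 10861 at day 15 and 3352 at day 30. A tag is 1 counted read or read end, the pileup is the number of tags over a peak's summit, and depth is the genome-wide background of tags. Naive depth came to 39.2 tags for every 10 kb, and days 15 and 30 had 2.38 and 2.1 times as much, so the longest list was the shallowest. Of 10 alveolar macrophage markers, 3 had a peak within 1000 bp of a gene end in the naive list (Itgax, Pparg and Ear2) and none did at day 15 or day 30. The shares over all protein-coding genes were 34.7%, 29.6% and 12.8% in the 3 lists. Peaks assigned by any of the rules were found at 7, 5 and 2 of the 10 markers, against 45.9%, 38.7% and 16.2% of all genes. Siglecf, Car4 and Fabp4 had none in any list. So few markers give no result about cell identity. Within 1000 bp of an end, no list had a peak at any of the 8 monocyte or interstitial macrophage markers, the 4 B cell, 7 epithelial or tumour cell, or 4 endothelial markers. Assigned peaks were found at 2, 2 and 1 of the monocyte or interstitial markers, 2, 2 and 0 of the epithelial or tumour ones, and 1, 1 and 0 of the endothelial ones. Of 4 neutrophil markers, S100a8 had a peak at an end in all lists, and of 4 annotated T cell markers Cd3d had one in the naive and day 15 lists. Their part in the results below was not tested.

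The promoter sequences that the peaks at member genes touch are shown first, with that of Marco, which had no peak there. Whether sequence bears on the presence of a peak was not tested. The sequences come from RefSeq on the GRCm38.p6 assembly, the mm10 build. They run from 250 bases before to 50 after the listed start, and are written along the gene. Of the 9 members 7 are in that table. Capitals mark exact matches, on either strand, to GAGGAA (the core bound by PU.1 and other ETS factors), TGANTCA (activator protein 1) and GGGCGG (the GC box).

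Cd68 and Scarb2 had a peak on the window in all 3 lists. Cd68 lies at chr11:69666121-69666420 and Scarb2 at chr5:92505608-92505907, both on the minus strand.
Cd68: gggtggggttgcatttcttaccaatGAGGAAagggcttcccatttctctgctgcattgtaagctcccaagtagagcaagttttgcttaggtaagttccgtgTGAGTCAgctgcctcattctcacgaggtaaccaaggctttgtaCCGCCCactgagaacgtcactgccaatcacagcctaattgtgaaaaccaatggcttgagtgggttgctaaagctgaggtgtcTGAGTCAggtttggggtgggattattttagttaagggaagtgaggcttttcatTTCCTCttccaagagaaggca
Scarb2: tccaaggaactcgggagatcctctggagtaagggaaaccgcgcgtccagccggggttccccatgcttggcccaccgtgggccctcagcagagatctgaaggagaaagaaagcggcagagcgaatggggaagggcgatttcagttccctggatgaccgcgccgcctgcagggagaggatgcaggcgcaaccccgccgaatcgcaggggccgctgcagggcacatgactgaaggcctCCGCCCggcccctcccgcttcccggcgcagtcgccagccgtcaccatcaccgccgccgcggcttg

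Cd36 had a peak on its window in the naive and day 15 lists, and Mrc1 had one at day 15 alone. Cd36 lies at chr5:17835847-17836146 on the minus strand and Mrc1 at chr2:14229164-14229463 on the plus strand.
Cd36: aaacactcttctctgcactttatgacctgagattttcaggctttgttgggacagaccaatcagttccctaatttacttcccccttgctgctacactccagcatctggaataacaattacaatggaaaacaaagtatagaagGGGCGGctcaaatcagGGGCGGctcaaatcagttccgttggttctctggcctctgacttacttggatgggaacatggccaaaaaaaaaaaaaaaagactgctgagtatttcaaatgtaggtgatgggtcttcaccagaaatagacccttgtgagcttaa
Mrc1: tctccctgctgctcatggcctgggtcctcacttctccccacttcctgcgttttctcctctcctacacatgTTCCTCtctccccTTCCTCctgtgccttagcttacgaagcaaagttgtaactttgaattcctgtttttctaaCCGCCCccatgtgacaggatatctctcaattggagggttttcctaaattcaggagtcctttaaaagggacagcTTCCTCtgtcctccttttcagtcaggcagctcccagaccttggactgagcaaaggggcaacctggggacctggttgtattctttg

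Marco had no peak on its window in any list and is shown for contrast. It lies at chr1:120504975-120505274 on the minus strand.
Marco: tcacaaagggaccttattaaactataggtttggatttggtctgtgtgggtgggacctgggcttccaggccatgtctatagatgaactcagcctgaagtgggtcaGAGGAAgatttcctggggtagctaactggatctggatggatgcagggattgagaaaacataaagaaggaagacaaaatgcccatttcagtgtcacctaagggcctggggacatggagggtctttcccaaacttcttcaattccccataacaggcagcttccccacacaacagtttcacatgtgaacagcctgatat

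The Cd68 window held 2 matches to TGANTCA, which occurs in 7.81% of all 32851 windows of the table, and it was the only one of the 7 member windows with this motif. GAGGAA was found in 4 of the 7 (Marco, Mrc1, Cd68 and Stab1), against 28.3% of all windows, with 3 matches in Mrc1. GGGCGG was found in 4 of the 7 (Mrc1, Cd36, Scarb2 and Cd68), against 35.7% of all. Neither CACGTG, the E-box bound by MITF and TFE factors, nor TTGCGNAA, bound by C/EBP factors, matched any member window, against 7.15% and 0.798% of all. Both strands were searched, and no match overlapped one of another motif. These are matches of letters and not measured binding.

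Of the 9 members, 8 had at least 1 assigned peak in naive cells, 8 on day 15 and 3 on day 30, where the shares over all protein-coding genes were 45.9%, 38.7% and 16.2%. Long genes and genes with wide empty flanks collect more peaks under this rule, and 5 members span over 60 kb. The peaks numbered 24, 21 and 3. When each list was cut to its 3352 strongest peaks, these became 0, 4 and 3, so the naive and day 15 counts rest on peaks below the top of longer lists. The highest naive member peak ranked 3363, just past the cut. Peaks within 1000 bp of a gene end were found at 2 members in the naive list (Scarb2 and Cd68), 3 at day 15 (these and Mrc1) and 3 at day 30 (Scarb2, Cd68 and Scarb1). Over all genes these shares were 34.7%, 29.6% and 12.8%, which for 9 genes is close to the members' counts in the first 2 lists. Most member peaks in the first 2 lists therefore lay away from gene ends: 10 inside genes and 11 outside in the naive list, then 10 and 8 on day 15, and none of either kind on day 30. The same split over all peaks of a list is not given here, so these counts are no result about the members.

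Merged over the lists, the peaks made 27 regions, of which 17 were in the naive and day 15 lists, 5 in the naive list alone, 2 at day 15 alone, 2 in all lists and 1 at day 30 alone. Of the 24 naive peaks, 19 overlapped a day 15 peak by at least 1 bp, or 79.2% (95% Wilson interval 59.5 to 90.8, counting error over peaks only), against 64.1% of all naive peaks. Had each been overlapped at the rate of all naive peaks in its decile of −log10 p, 13.5 would have been. The interval treats the 24 peaks as independent, though 7 were at Marco and 6 at Cd36, so it is no test against that number. By day 30 only 2 of the 24 overlapped a peak, or 8.33% (2.32 to 25.8), against 21.7% of all naive peaks and 2.71 at the rates of their deciles. Both shared peaks were among the 3 at gene ends, where 32.8% of all naive peaks were overlapped at day 30. Of the 21 away from ends none was, where the share over all such peaks was 11.4%. At day 15, 17 of these 21 were overlapped, against 54.0% of all naive peaks away from ends. The members' naive peaks were of middling strength, with a median −log10 p of 10.5 against 12.0 for the list and a range of 6.29 to 18.6.

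**Figure D1:**
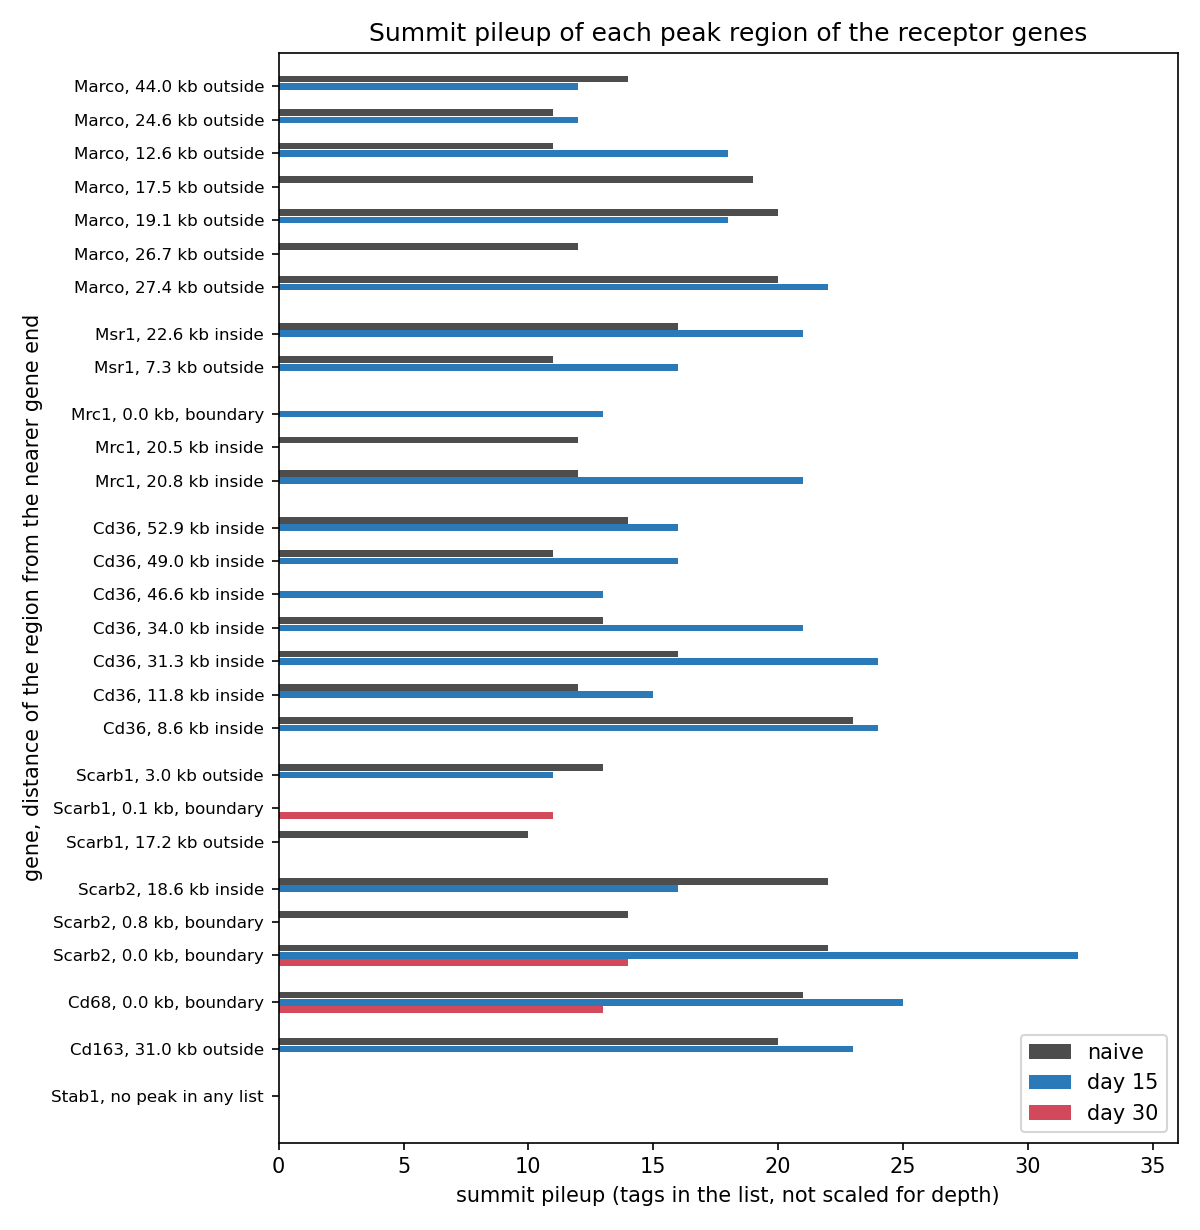
Summit pileup, in tags of each list and not scaled for depth, for the 27 regions of the 9 genes, with the distance of the region from the nearer gene end. Grey, blue and red bars are the naive, day 15 and day 30 lists; red bars stand at Scarb1, Scarb2 and Cd68 alone, and Stab1 has no bar.

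Marco, a receptor for unopsonised particles and bacteria that is characteristic of resident alveolar macrophages, had the most naive peaks of the members, 7, then 5 at day 15 and 0 at day 30. At least 7 assigned peaks were found at 0.32% of all genes in the naive list. This count rests on the nearest protein-coding gene end. When ends of all annotated genes competed, the naive peaks of all members fell from 24 to 20, and how many were Marco's was not counted. None of the Marco peaks lay in the gene or within 1000 bp of its ends. Upstream of the gene, 5 naive regions lay 12.6, 17.5, 19.1, 26.7 and 27.4 kb from its upper end, with summit pileups of 11, 19, 20, 12 and 20 tags. At day 15 the regions at 12.6, 19.1 and 27.4 kb were present with 18, 18 and 22 tags, and those at 17.5 and 26.7 kb were absent.

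The Marco region nearest the promoter, chr1:120517579-120517845, was among the weakest naive peaks, with a fold over local background of 4.26 and a −log10 p of 6.29, above 4.20% of the naive list. At day 15 its fold was 5.62 and its −log10 p 10.9, above 45.2% of that list. Folds and p-values are the authors' own for each list. Beyond the other end of Marco, regions 24.6 and 44.0 kb away had 11 and 14 naive tags and 12 and 12 at day 15. There the fold was 5.61 and 7.35 in the naive list and 4.11 and 4.53 at day 15. The farther one lay inside the gene model Gm46154, a long noncoding RNA.

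Msr1, the macrophage scavenger receptor for modified lipoproteins, kept both of its naive regions at day 15 and had none at day 30. The region inside the gene, chr8:39619617-39620127, had 16 naive and 21 day 15 tags, with a fold of 7.26 and 7.01 and a −log10 p of 12.9 and 14.7. The region 7.3 kb outside the upper end had 11 and 16 tags, with a fold of 5.77 and 5.86.

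Mrc1, which binds mannose-bearing glycoproteins, was the member with a peak at its start at day 15 alone. The peak, chr2:14229208-14229514, covered 256 of the 300 bases of the promoter window printed above and had 13 tags, a fold of 3.91 and a −log10 p of 6.22, above 3.10% of its list. Of all genes without a naive peak within 1000 bp of an end, 3.04% had one at day 15. Scaled to the naive depth the 13 tags come to 5.45, where the lowest naive peak had 6. Regions shared by both lists had a median ratio of scaled tags, day 15 over naive, of 0.448. At that ratio the 13 tags equal 12.2 naive tags, where the 5th percentile of naive pileups was 9. Among shared regions within 2 tags of a naive pileup of 9 the median was 0.653, at which the 13 tags equal fewer naive tags. A peak gained by day 15 and one under the naive detection limit cannot be told apart from these values. Inside the gene, neighbouring naive peaks 20.5 and 20.8 kb from the start had 12 tags each, with folds of 5.65 and 5.75. At day 15 a single peak, chr2:14250197-14250574, overlapped the second of them and had 21 tags, a fold of 6.88 and a −log10 p of 14.4 against 9.0. No Mrc1 peak was listed at day 30.

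**Figure D2:**
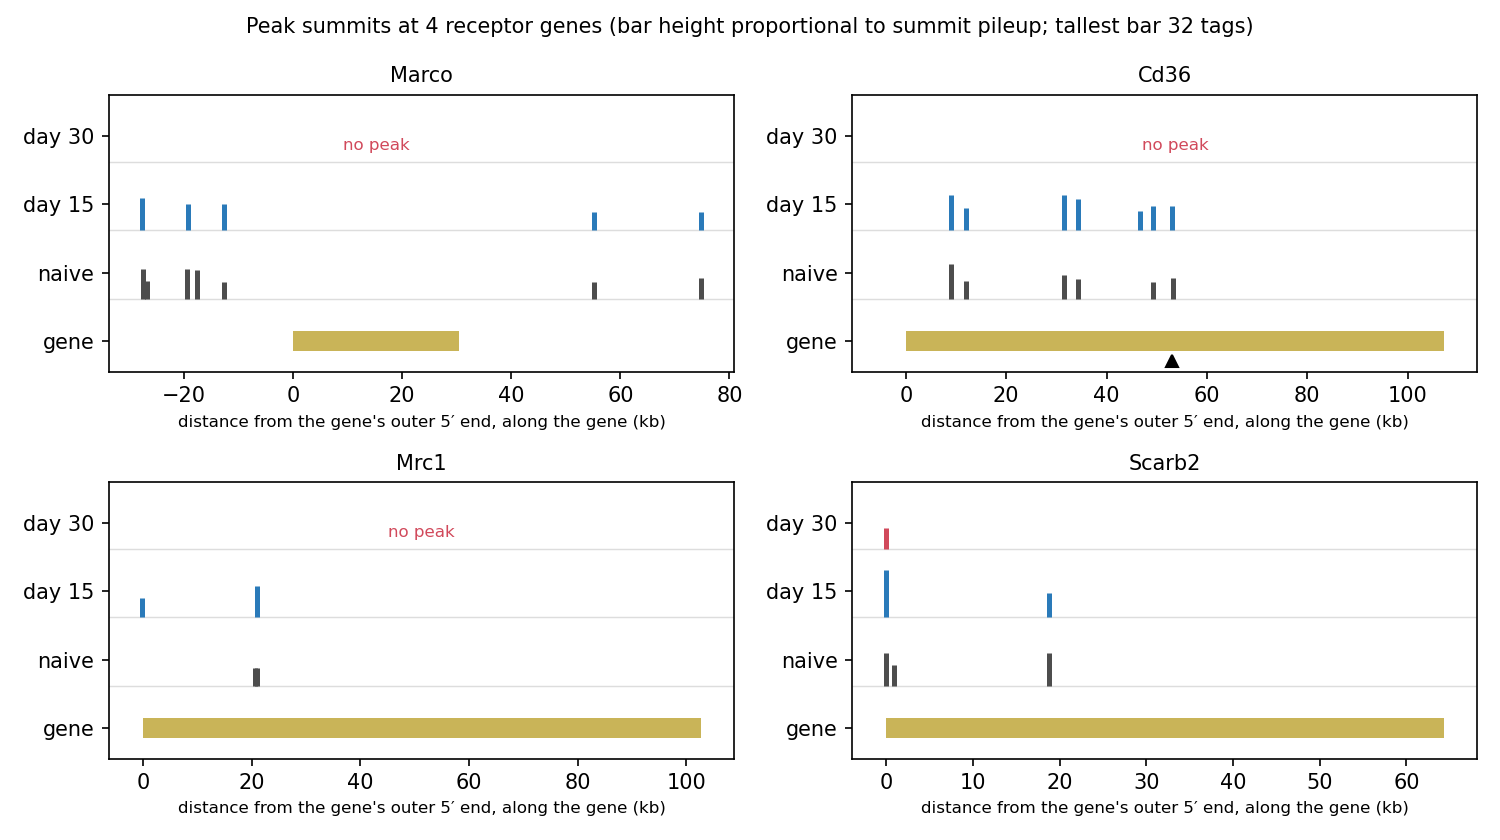
Peak summits at Marco, Cd36, Mrc1 and Scarb2, by distance along the gene in kb from its outer 5′ end, with bar heights proportional to the summit pileup in tags and the gene as a yellow bar. The triangle marks the listed Cd36 start inside the gene; Marco shows no peak in its body, and at day 30 the Scarb2 start alone has a peak.

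Cd36, a receptor for long-chain fatty acids and oxidised lipoproteins, had 6 naive peaks, 7 at day 15 and none at day 30, all of them inside the gene. The gene as annotated spans 107 kb, and its listed start lies 53.1 kb inside the upper end, so the peak on its promoter window is not counted as lying at a gene end. That peak, chr5:17835603-17836100, covered 254 bases of the window in naive cells and 244 on day 15, with 14 and 16 tags, a fold of 5.86 and 4.64 and a −log10 p of 9.85 and 8.41. The other 5 naive regions lay 8.6, 11.8, 31.3, 34.2 and 49.1 kb from the upper end, with 23, 12, 16, 13 and 11 tags. All of them were present at day 15, with 24, 15, 24, 21 and 16 tags.

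The Cd36 region 8.6 kb from the upper end, chr5:17879870-17880340, had the highest pileup and −log10 p of any naive member peak, though not the highest fold, with a fold of 8.70 and a −log10 p of 18.6, against 6.76 and 15.5 at day 15. A region 46.6 kb from the upper end was listed at day 15 alone, with 13 tags and a fold of 4.00. Over all genes, 0.576% had 6 or more assigned naive peaks and 0.137% had 7 or more at day 15.

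Scarb1, the receptor for high-density lipoprotein known as SR-B1, was the member with a peak at day 30 and none at the same place before. It lay at chr5:125340786-125341004, 90 bp inside the upper end, with 11 tags, a fold of 4.23 and a −log10 p of 6.24, above 2.89% of the day 30 list. Of all genes without a naive peak within 1000 bp of an end, 0.245% had one at day 30, and 20 of the 21887 genes (0.0914%) had one at day 30 alone. Scaled to the naive depth its 11 tags come to 5.25. At the median day 30 ratio of shared regions, 0.298, they equal 17.6 naive tags. Among shared regions within 2 tags of a naive pileup of 9 the median was 0.668, at which the 11 tags equal fewer naive tags. A peak gained by day 30 and one missed in the naive list were not tested against each other. Its −log10 q was under 3, as was that of the Cd68 peak at day 30. The other Scarb1 regions lay outside the gene. A region 3.0 kb outside the lower end had 13 naive tags and 11 at day 15, with a fold of 6.86 and 3.95, and was absent at day 30. One 17.2 kb outside the upper end had 10 tags and was in the naive list alone.

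Scarb2, which encodes the lysosomal membrane protein LIMP-2 that carries glucocerebrosidase, had a peak on its start in all lists, as did 12.4% of all genes within 1000 bp of an end. The start peak had 22, 32 and 14 tags in the naive, day 15 and day 30 lists, with a fold of 7.57, 6.45 and 4.34. Its −log10 p was 16.1, 18.4 and 7.25, and the day 15 value was the highest of any member peak in that list. A region 18.6 kb inside the same gene, chr5:92486703-92487093, had the same naive pileup. It had 22 naive tags and 16 at day 15, its fold was 8.27 and 4.31, its −log10 p 17.4 and 7.79, and it was absent at day 30. Another naive region, 0.8 kb inside the upper end with 14 tags, was absent later.

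Cd68, a standard macrophage marker, had a single region, on its promoter window, in all lists, and this region also lies within 1000 bp of an end of Eif4a1, a translation initiation factor gene. The peak had 21, 25 and 13 tags and a fold of 7.05, 4.68 and 3.80, with a −log10 p of 14.8, 11.4 and 6.03. The local background under it was 2.12, 4.56 and 2.68 tags, and the day 15 value was the highest of any member peak. The naive and day 15 peaks covered all 300 bases of the printed window, and the day 30 peak 227.

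Cd163 had 1 region, chr6:124273101-124273617, 31.0 kb upstream of the gene, and no peak at the gene itself. It had 20 naive and 23 day 15 tags, with a fold of 9.55 and 7.27, the highest of any member in each of these lists, and a −log10 p of 18.5 and 16.1. It was absent at day 30. Stab1 had no assigned peak in any list. The nearest peak to its lower end, 9.8 kb away in the naive and day 15 lists and 9.9 kb away at day 30, was nearest to another gene, Smim4.

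In the next comparison pileups were scaled to the naive depth. Every one of the 19 member regions shared by the naive and day 15 lists had fewer scaled tags at day 15, as did all but 40 of the 9343 shared regions of the genome (0.428% were higher). By the authors' fold over local background the count differed: 3 of the 19 were higher at day 15, in Marco (ratio 1.32), Mrc1 (1.20) and Msr1 (1.02), as were 11.3% of all shared regions. Shared regions are those listed at both times, so regions under detection at either time are not in these ratios. The median ratio of scaled tags was 0.499 for the members, with a range of 0.305 to 0.734, and 0.448 for all shared regions. The ratio falls as the naive pileup rises, so each region was also set beside shared regions within 2 tags of its naive pileup, and 12 of 19 lay above the median of those. The highest ratios were 0.734 in Mrc1 (95% exact interval 0.345 to 1.64), 0.687 at the Marco region 12.6 kb upstream (0.307 to 1.61) and 0.678 at a region inside Cd36 (0.324 to 1.47). The lowest were 0.305 inside Scarb2 (0.150 to 0.608), 0.355 at Scarb1 (0.144 to 0.859) and 0.360 at the farthest Marco region (0.152 to 0.838).

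At the Scarb2 start the ratio was 0.610 (0.344 to 1.10), above 96.0% of shared regions with a like naive pileup, whereas the region inside that gene was above 7.85% of them. The difference between these 2 regions was not tested, and intervals cover counting error in each pair of pileups only. All 19 held 0.448, so at this depth no member region could be told apart from the general ratio. Fewer cells with an open site and a lower accessibility in each cell cannot be told apart in such bulk data. Nor can either be told apart from a larger share of background tags in a later list, because the scaling divides by the genome-wide background. At day 30 the ratios at Scarb2 and Cd68 were 0.304 (0.144 to 0.621) and 0.295 (0.136 to 0.618), against a median of 0.298 over 3168 shared regions, of which 0.253% were above 1. Among shared regions with a like naive pileup the medians were 0.338 and 0.349. The Scarb2 and Cd68 ratios were above 27.1% and 18.5% of those, and both intervals held these medians.

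**Figure D3:**
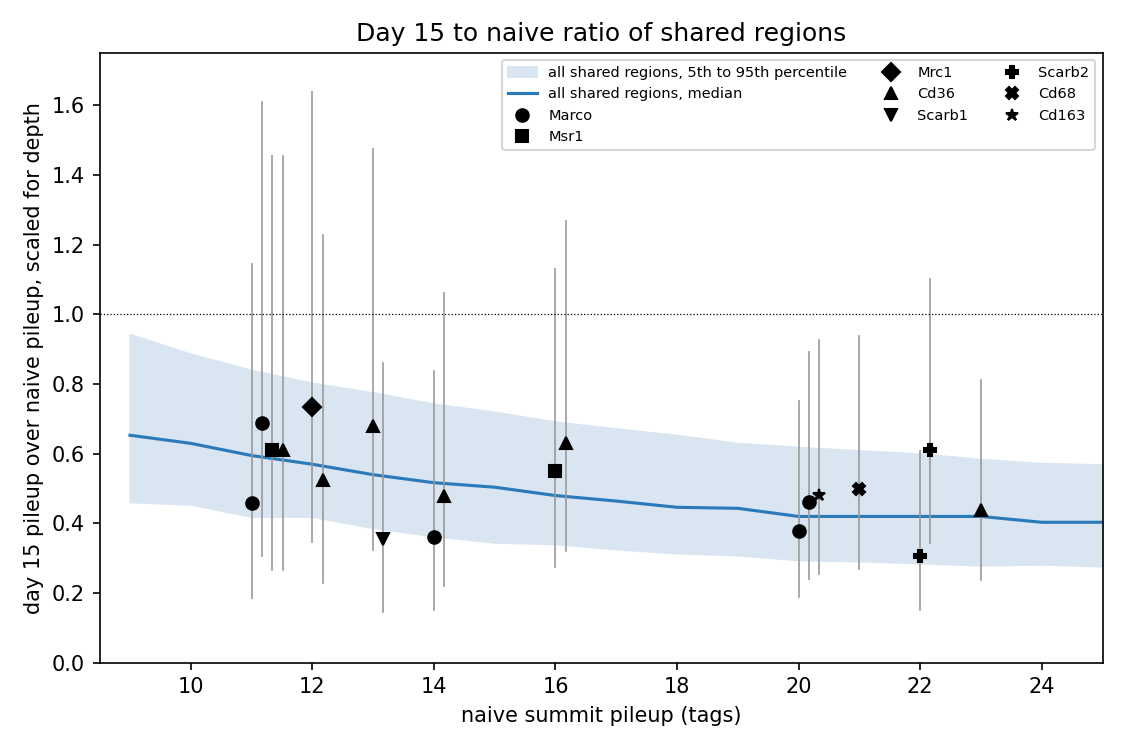
Day 15 over naive summit pileup, scaled for depth, against the naive summit pileup in tags, for the 19 shared member regions (symbols by gene, with 95% exact intervals) and all shared regions (blue median line and band from the 5th to the 95th percentile). Symbols of equal pileup are set apart sideways; all 19 lie below 1, and Mrc1 is the highest.

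Absence of a peak is bounded by detection, and whether the absent regions had closed or lay under the limit of a list cannot be told apart. The 5 naive regions absent at day 15 had 10 to 19 naive tags, and the 22 absent at day 30 had 10 to 23. The 5th percentile of pileups was 13 tags at day 15 and 12 at day 30, in lists of greater depth. At the median ratio of all shared regions, 3 of the 5 would come to under that percentile at day 15, and 2 to it or more. At day 30, 17 of the 22 would come to under it, and 5 to it or more. These splits depend on the ratio used. Among shared regions within 2 tags of a naive pileup of 11, the median ratio was higher, 0.594 at day 15 and 0.585 at day 30. At such ratios fewer of the absent regions would come to under the percentile, but these medians cover only regions listed at both times. Among the regions absent at day 30 were the strongest naive peaks inside Cd36 and Scarb2 and the one upstream of Cd163. All of these were in decile 8 of naive −log10 p, counted from the weakest. In that decile 20.2% of all naive peaks away from ends were overlapped at day 30, so absence was the usual outcome. Of day 15 and day 30 peaks over the whole genome, 12.8% and 3.49% overlapped no naive peak, against 2 of 21 and 1 of 3 member peaks.

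The promoter windows differed in CpG content, which the choice of members did not use. Scarb2 had 28 CpG dinucleotides in 300 bases, more than 81.2% of windows of protein-coding genes, and the other 6 had between 0 (Marco) and 7 (Stab1), below the median of 13. Over all 17492 genes listed there, 34.6%, 29.6% and 12.7% had a peak on a window in the naive, day 15 and day 30 lists, where 3, 4 and 2 of the 7 members did. Among windows with over 20 CpG, as in Scarb2, 59.0%, 51.7% and 24.4% had a peak. Among those with 3 to 5, as in Mrc1, Cd36 and Cd68, only 4.94%, 3.82% and 0.56% did. The Cd68 window was thus 1 of 17 among 3034 such windows with a peak at day 30, and all 3 of these members had one at day 15. Marco and Cd163 fell among windows with 0 to 2, of which 1.20% had a naive peak.

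**Figure D4:**
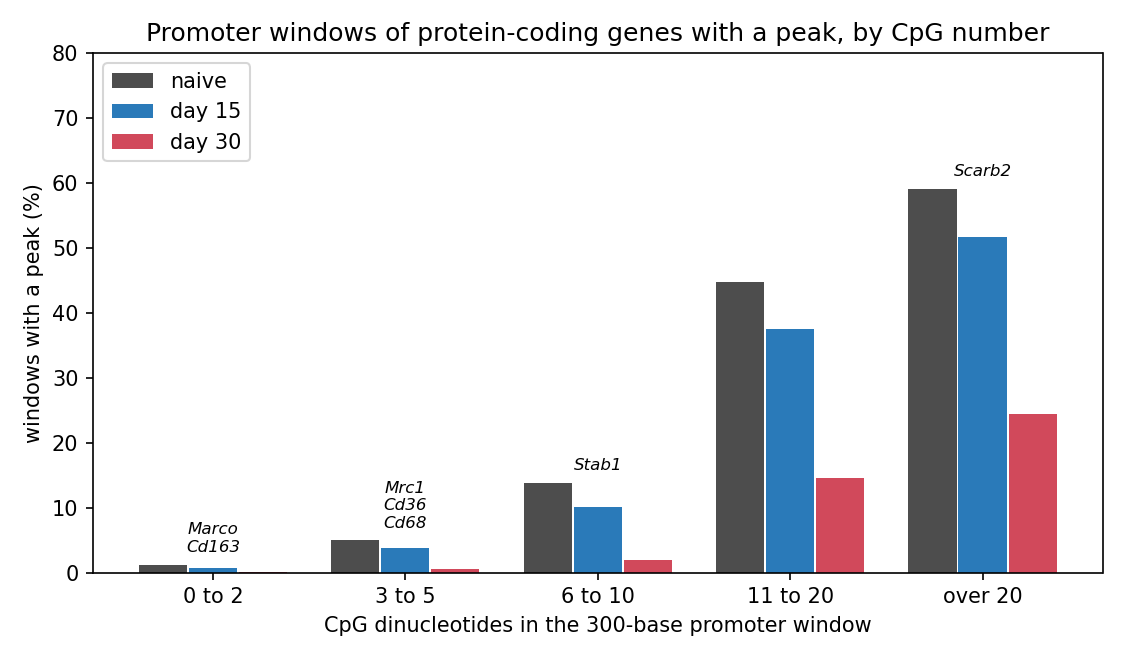
Percentage of promoter windows of protein-coding genes with a peak in each list, by the number of CpG dinucleotides in the 300-base window, with the members of each class named above the bars. Bars rise from 1.2% to 59.0% in the naive list, and the members other than Scarb2 stand in the 3 classes with the fewest CpG.

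Other receptors of the same functions were counted by the same rule. Of 16 further scavenger receptors, a peak within 1000 bp of an end was found at 4 in naive cells, 4 on day 15 and 1 on day 30. Olr1, Cd14 and Lgals3 had one in the first 2 lists, and Lrp1, a large receptor for protease complexes and lipoproteins, in all. Of 12 further lectin receptors the numbers were 4, 4 and 1. Clec7a, the beta-glucan receptor Dectin-1, had one in all lists, Ly75 and Clec12a in the first 2, Siglec1 in the naive list and Clec4e at day 15 alone. With 34.7%, 29.6% and 12.8% of all genes called, so few genes give no result about these receptors.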

How the data were processed

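The members and lists were chosen with earlier results of these data known. Per the submitters' processing notes the authors used Bowtie2 2.3.4.1 and MACS2 2.1.1 on mm10. Settings, transposase shift and whether samples were pooled are not given in the sources used here. Labels tie each group to 1 deposited list. The deposited lists hold, for each peak, a score, the fold (a ratio) over local background, and p and q values as −log10. They have no headers, and the columns were read from their values.

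The summit pileup and background were solved from fold, (pileup + 1)/(background + 1), and p, the Poisson tail above the pileup. Every pileup matched p within 0.001, and depth came from the commonest background, over 200 bp. This step was tested on simulated peaks. The design text speaks of triplicates, while labels give 4, 4 and 3 samples. Scaling multiplied pileups by naive over list depth. Ratios took the strongest overlapping peaks, and intervals are 95% exact (Clopper-Pearson). Gene positions and promoters came from RefSeq GRCm38.p6. No genome sequence was used, so sequences of distal peaks are not shown. All 9 members are named. Of the other gene lists, up to 4 with differing and 2 with a peak at an end in all lists, in list order, are named by rule. Siglecf, Car4 and Fabp4 were named after their values were seen. Python 3.11.15 and scipy 1.17.1 were used.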

Additional observations from a re-analysis of the deposited data

How the results depend on the processing

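Of 50 alternative values for 13 results, 39 kept the count within 1.5 times, the share within its interval or the ratio within 1.5 times. Equal list lengths changed most. Among the top 3352 peaks of each list the naive list held 0 member peaks, at 0 members assigned and 0 with a peak at an end, and the day 15 list held 4 peaks, at 4 members assigned and 1 with a peak at an end (Scarb2). The share of naive member peaks overlapped then has no value. The highest naive member peaks, at Cd36 and Cd163, ranked 3363 and 3394 of 14731, just past this cut. With only peaks of −log10 q of at least 3, day 30 kept 1 member peak, at 1 member assigned and 1 with a peak at an end (Scarb2), so the Cd68 and Scarb1 peaks at day 30 rest on weaker calls. By the authors' fold in place of the depth-scaled pileup, the median ratio to naive was 0.852 at day 15 and 0.556 at day 30, against 0.761 and 0.606 over all shared regions. Fold includes the local background, and the cause of this difference was not tested. Measured from the listed start, an alternative chosen after seeing the data, Cd36 joined the members with a peak at an end in the naive and day 15 lists. No paired analysis was possible because each group has 1 list and no values per sample, which also prevents leaving out a sample.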
